A study of Mus musculus with 7 samples.

Results

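The transcripts described here are those of the nuclear genes for the 5 enzyme complexes of mitochondrial oxidative phosphorylation, in scrapings of the mouse duodenal lumen. They were chosen by gene name: every row of the deposited gene table whose symbol starts with Nduf plus a, b, c, s or v, with Uqcr, with Cox4 to Cox8 or with Atp5, or is Sdha, Sdhb, Sdhc or Sdhd. A mean level of at least 1 RPKM (reads scaled for gene length in kilobases and for mapped depth) over the 7 libraries was also required. Of 22987 rows, 90 matched the names and 86 of these passed the minimum. Of the 86, 77 encode subunits: 36 of complex I, 4 of complex II, 8 of complex III, 14 of complex IV and 15 of complex V. The other 9 matched by name but encode assembly or coupling factors (Ndufaf1 to Ndufaf7, Atp5s and Atp5sl), and are kept apart below. The 4 rows under the minimum were Cox4i2, Cox6a2, Cox8b and Ndufa4l2. Just inside the minimum lay Ndufaf5 and Ndufaf6, with means of 1.48 and 1.54 RPKM, and just outside it Cox6a2, with 0.378 RPKM. The 13 subunits encoded by mitochondrial DNA are not analysed here.

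The series compared 4 libraries from Nlrc4-T337S mice with 3 from wild-type mice, all C57BL/6 and 6 weeks old. Nlrc4 is the adaptor of an inflammasome, a complex with which gut epithelial cells answer bacterial proteins, and T337S is an amino acid change in it. The series title writes the change on both alleles, and no Cre, transgene or treatment is named for either group. Opened duodena were rinsed and the lumen was scraped, so the RNA comes from surface cells with whatever else the scraping took along. The labels do not say that each library is a separate animal, so each p-value speaks only of spread among libraries, which may be partly technical.

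Oxidative phosphorylation makes most of the ATP of an absorbing enterocyte. Complex I takes electrons from NADH and complex II from succinate. Both pass them by way of ubiquinone to complex III, cytochrome c and complex IV, which reduces oxygen. Complexes I, III and IV pump protons out of the matrix, and complex V, the ATP synthase, lets them back in to make ATP.

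Depth was 45032119 to 95732587 quality-passing reads per library with 84.2% to 97.1% of them mapped, so that 1 RPKM stood for 39.8 to 80.6 reads per kilobase. Nlrc4 itself was at 18.3 to 20.6 RPKM in Nlrc4-T337S libraries and at 18.7 to 20.4 RPKM in wild-type libraries, which does not check an amino acid change. The 10 enterocyte markers summed to 32565 to 48145 RPKM in Nlrc4-T337S libraries and 35641 to 46682 RPKM in wild-type libraries, so that the defining markers of the labelled epithelium were abundant in all 7 libraries. The 10 crypt and proliferation markers summed to 51.8 to 94.7 RPKM in Nlrc4-T337S libraries and 83.4 to 95.2 RPKM in wild-type libraries. The 10 stroma and smooth muscle markers summed to 2.68 to 7.51 RPKM in Nlrc4-T337S libraries, below the 11.5 to 26.0 RPKM of wild-type libraries. S100g, a calcium-binding protein of the absorbing duodenum, split the libraries another way. It was at 11.2 to 19.8 RPKM in Nlrc4-T337S replicates 1 and 2 and wild-type replicates 1 and 2, and at 1346 to 2395 RPKM in Nlrc4-T337S replicates 3 and 4 and wild-type replicate 3. The number in a library's title, whose meaning is not stated, is odd in exactly the 4 libraries low in S100g and even in the 3 high in it. These 3 also come last in the submitters' order, so title number, order and S100g cannot be told apart.

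The subunit genes were among the most abundant transcripts of the scrapings. The 77 subunit transcripts together made up 4.51% to 4.90% of the summed RPKM of an Nlrc4-T337S library and 4.42% to 4.94% of a wild-type library. Of the 660 genes with a mean of at least 100 RPKM, 53 were subunits. By the median of its members' mean levels, complex IV stood highest with 414 RPKM, followed by complex V with 344 RPKM, complex II with 268 RPKM, complex III with 212 RPKM and complex I with 94.96 RPKM. The assembly and coupling factors had a median of 3.15 RPKM. Complex V held 33.6% to 34.5% of the subunit sum in each library, complex IV 28.8% to 30.6%, complex I 20.2% to 21.3%, complex III 9.75% to 10.3% and complex II 5.46% to 5.99%. Each share thus lay in a narrow band over all 7 libraries, and the rank order of the 77 subunits was nearly the same in each: the lowest Spearman correlation between any pair of libraries was 0.976, across genes, which are not independent replicates.

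**Figure D1:**
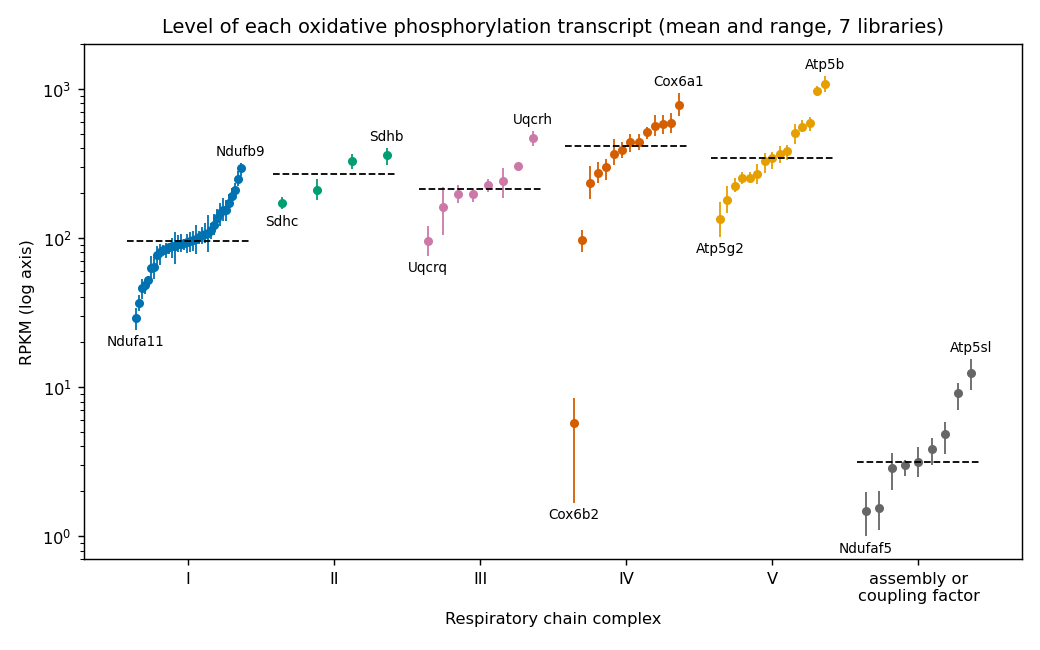
Level of each of the 86 transcripts in RPKM on a log axis, grouped by complex; points are means over the 7 libraries, vertical lines run from the lowest to the highest library, and dashed lines are the median of each group's means. Complex IV has the highest median, 414 RPKM, with Cox6b2 far below its other members, and the assembly and coupling factors lie at 1.48 to 12.4 RPKM.

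None of the 86 transcripts passed the test of genotype by limma, fitted over 10987 genes with Benjamini-Hochberg adjustment at 0.05. Over all genes 0.892% passed, 33 higher (0.3%) and 65 lower (0.592%) in Nlrc4-T337S. At an unadjusted p under 0.05 there were 6 of the 86, all lower in Nlrc4-T337S (5 assembly factors and the subunit Ndufa8), while 22.2% of all genes reached this in either direction and 20.4% as lower. The groups did not overlap for 3 of the 86, all lower in Nlrc4-T337S and all assembly factors, against 19.3% of all genes in either direction, 17.3% as lower and 1.97% as higher. Both shares of the 86 lie below those of all genes. With 4 and 3 libraries the median 95% interval of a log2 change reached 0.29 to either side for the 86. This interval is not adjusted for the number of genes tested, so changes well above that size could also fail the test. Ndufaf5, for example, did not pass at -0.47 (limma adjusted p = 0.123). In bulk tissue, fewer cells of a type and less RNA per cell cannot be told apart.

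The median change of the subunits was nearer to 0 than that of all genes. It was not nearer to 0 than that of genes of 100 RPKM or more. The median log2 change, Nlrc4-T337S minus wild type on the log2(RPKM + 0.5) scale, was -0.15 over all 10987 genes, and 78% of them had a negative value. It was -0.06 over the 77 subunits, of which 58 were negative. By complex the median was -0.10 for complex I (32 of 36 negative), -0.04 for complex II (3 of 4), -0.09 for complex III (5 of 8), -0.03 for complex IV (8 of 14) and -0.03 for complex V (10 of 15). Set against the median of all genes, these are 0.05 higher for complex I, 0.11 for complex II, 0.06 for complex III, 0.11 for complex IV and 0.12 for complex V. The shift of all genes depends on how libraries are scaled: it was -0.02 after median-of-ratios scaling, when the medians of the 5 complexes were 0.04 to 0.12, and 0.03 after quantile normalization, when the subunits lay at -0.04 relative to it. The 33 higher and 65 lower calls then became 54 and 53, and 74 and 59. The shift also goes with the level of a gene. Among the 7118 genes with a mean of 0.5 to 10 RPKM the median was -0.18 and 83.7% were negative, among the 3209 of 10 to 100 RPKM it was -0.09 with 69.6% negative, and among the 660 of 100 RPKM or more it was -0.04 with 57.3% negative. Most subunits belong to the last group, and the median of all 77 subunits, -0.06, was not nearer to 0 than its -0.04. The offsets from all genes given above therefore do not set the subunits apart from other abundant genes.

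**Figure D2:**
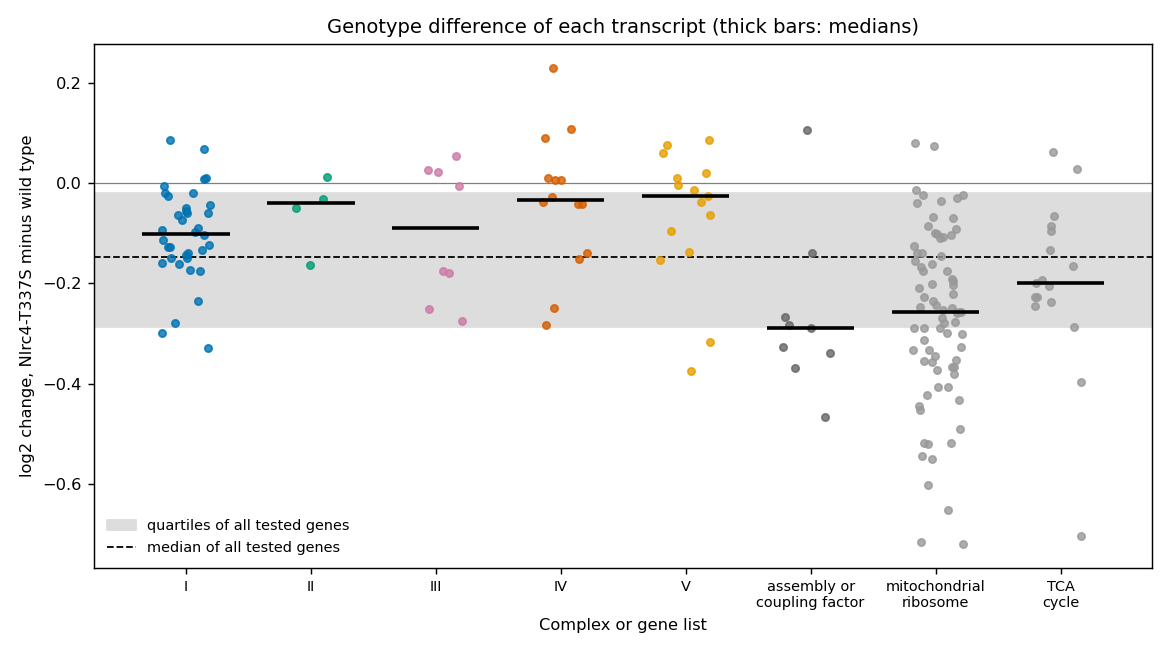
Log2 change of each transcript, Nlrc4-T337S minus wild type, by complex and for 2 related gene lists; points are genes, thick bars medians, the dashed line the median of all 10987 tested genes (-0.15) and the grey band their quartiles. The medians of complexes I to V lie above the dashed line (after quantile normalization the subunits lay at -0.04 relative to it), and those of the 9 assembly or coupling factors (-0.29) and of the mitochondrial ribosome (-0.26) below it.

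In complex I, levels ran about 10-fold, between Ndufb9, an accessory subunit with a mean of 294 RPKM, and Ndufa11, a membrane-arm accessory subunit with 29.2 RPKM. Ndufb9 was at 294 ± 19.9 RPKM in Nlrc4-T337S (SD, n = 4), against 293 ± 30.0 RPKM in wild type (SD, n = 3). Ndufa11 was at 28.1 ± 4.14 RPKM in Nlrc4-T337S and 30.6 ± 4.23 RPKM in wild type. The largest negative change of the complex was that of Ndufs7 (chromosome 10, 79711866 to 79719539, mm9), the iron-sulfur subunit next to the ubiquinone site. It had 80.4, 117, 87.6 and 103 RPKM in Nlrc4-T337S replicates 1 to 4, against 119, 104 and 142 RPKM in wild-type replicates 1 to 3. The groups overlap, since Nlrc4-T337S replicate 2 lies above wild-type replicate 2. The log2 change was -0.33 (SE 0.16, adjusted p = 0.258). Ndufa8, an accessory subunit of the intermembrane-space side, was the only subunit with an unadjusted p under 0.05. It had 67.0, 92.8, 81.2 and 81.7 RPKM in Nlrc4-T337S and 97.3, 89.9 and 110 RPKM in wild type. Here too Nlrc4-T337S replicate 2 reaches into the wild-type range, and the log2 change was -0.30 (SE 0.13, adjusted p = 0.219). The largest positive change was 0.09 (SE 0.14) for the accessory subunit Ndufs5, with 64.7 ± 6.07 RPKM in Nlrc4-T337S and 61.5 ± 12.5 RPKM in wild type.

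Complex II, the enzyme shared with the tricarboxylic acid cycle, has only 4 subunits, all encoded in the nucleus. Sdhb, the iron-sulfur subunit, was highest with 356 ± 41.2 RPKM in Nlrc4-T337S and 368 ± 42.8 RPKM in wild type. Sdhc, a membrane anchor, was lowest with 171 ± 12.6 RPKM in Nlrc4-T337S and 170 ± 12.9 RPKM in wild type. Sdha, the flavoprotein that oxidises succinate, had the largest change of the 4, -0.16 (SE 0.12, adjusted p = 0.419), with 200 ± 13.6 RPKM in Nlrc4-T337S and 224 ± 25.3 RPKM in wild type. In both genotypes Sdhb exceeded Sdha, by 1.51 to 1.89 times in Nlrc4-T337S libraries and 1.53 to 1.79 times in wild-type libraries.

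Complex III ran between Uqcrh, the acidic hinge protein at the cytochrome c1 docking side, with a mean of 469 RPKM, and the small subunit Uqcrq, with 95.7 RPKM. Uqcrfs1, the Rieske iron-sulfur protein, had the largest positive change by genotype, 0.06 (SE 0.11), with 230 ± 16.5 RPKM in Nlrc4-T337S and 221 ± 18.8 RPKM in wild type. Uqcrc1 (chromosome 9, 108838661 to 108851685, mm9), one of the core proteins on the matrix side, had the largest negative change and was the most variable subunit of the complex. It had 105, 146, 170 and 178 RPKM in Nlrc4-T337S replicates 1 to 4, against 151, 169 and 219 RPKM in wild-type replicates 1 to 3. The genotypes overlap broadly, and in each of them the even-numbered libraries are the highest. The log2 change by genotype was -0.27 (SE 0.20, adjusted p = 0.438). Its partner core protein Uqcrc2 did not share this order, with 197 ± 18.1 RPKM in Nlrc4-T337S and 198 ± 19.1 RPKM in wild type. The ratio of Uqcrc1 to Uqcrc2 was 0.490, 0.696, 0.898 and 1.02 in Nlrc4-T337S replicates 1 to 4, against 0.708, 0.954 and 1.08 in wild-type replicates 1 to 3. Exons of Uqcrc2 overlap Pdzd9 on the opposite strand, and these libraries do not mark strand. Cyc1, the cytochrome c1 subunit whose name the pattern leaves out, was at 184 ± 19.6 RPKM in Nlrc4-T337S and 203 ± 16.9 RPKM in wild type.

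Complex IV contains the subunits with tissue-specific isoforms, and in most families a widely expressed form was far above the others. Cox6a1, the widely expressed form, was the highest subunit of the complex with 741 ± 103 RPKM in Nlrc4-T337S and 823 ± 115 RPKM in wild type. Its heart and muscle counterpart Cox6a2 had 0.161 to 0.431 RPKM in Nlrc4-T337S and 0.377 to 0.467 RPKM in wild type. Cox4i1 was at 585 ± 74.8 RPKM in Nlrc4-T337S and 602 ± 82.1 RPKM in wild type, whereas Cox4i2, known from lung, had at most 0.0692 RPKM in Nlrc4-T337S and 0.179 RPKM in wild type. Cox8a was at 535 ± 73.8 RPKM in Nlrc4-T337S and 591 ± 97.2 RPKM in wild type, and Cox8b, the muscle form, was listed at 0 in all 4 Nlrc4-T337S libraries and at up to 0.0398 RPKM in wild type. Cox6b1 was at 585 ± 57.3 RPKM in Nlrc4-T337S and 582 ± 76.1 RPKM in wild type. The testis form Cox6b2 was at 5.48 ± 2.90 RPKM in Nlrc4-T337S and 6.12 ± 1.91 RPKM in wild type.

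The exception was Cox7a1 (chromosome 7, 30969190 to 30971047, mm9), also known as a heart and muscle form. It had 275, 303, 221 and 202 RPKM in Nlrc4-T337S replicates 1 to 4, against 239, 183 and 213 RPKM in wild-type replicates 1 to 3. The widely expressed Cox7a2 (chromosome 9, 79603048 to 79607660) had 320, 339, 300 and 273 RPKM in Nlrc4-T337S and 326, 244 and 290 RPKM in wild type. Cox7a1 thus stood at 0.736 to 0.894 of Cox7a2 in Nlrc4-T337S libraries and 0.732 to 0.748 in wild-type libraries. The odd-numbered Nlrc4-T337S replicates 1 and 2 had the highest ratios, and the other 5 libraries lay within 0.732 to 0.748. By genotype Cox7a1 had the largest positive log2 change of all subunits, 0.23 (SE 0.17, adjusted p = 0.429). Of 6 striated muscle and brown fat markers, 5 were under the mean of 0.5 RPKM required for testing. Ucp1 was listed at 0 in all 7 libraries, Ckm was at most 0.199 RPKM in Nlrc4-T337S and 0.310 RPKM in wild type, and the list summed to 1.93 to 5.68 RPKM in Nlrc4-T337S and 1.37 to 2.77 RPKM in wild type. Most of that sum was Acta1, skeletal muscle actin, with 3.59, 5.35, 1.88 and 1.88 RPKM in Nlrc4-T337S replicates 1 to 4. It was thus highest in the same replicates 1 and 2 as Cox7a1. In wild-type replicates 1 to 3 the whole list summed to 2.77, 1.67 and 1.37 RPKM, where Cox7a1 was at 239, 183 and 213 RPKM. The part of Acta1 in the Cox7a1 values was not tested. Cox7a2l, which encodes a related protein, was at 89.6 ± 12.2 RPKM in Nlrc4-T337S and 106 ± 11.2 RPKM in wild type (log2 change -0.25, SE 0.13, adjusted p = 0.294). Ndufa4, named for complex I but known as a subunit of complex IV, was at 363 ± 70.4 RPKM in Nlrc4-T337S and 368 ± 51.5 RPKM in wild type. Its relative Ndufa4l2 stayed at or below 0.081 RPKM in Nlrc4-T337S and 0.0450 RPKM in wild type.

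**Figure D3:**
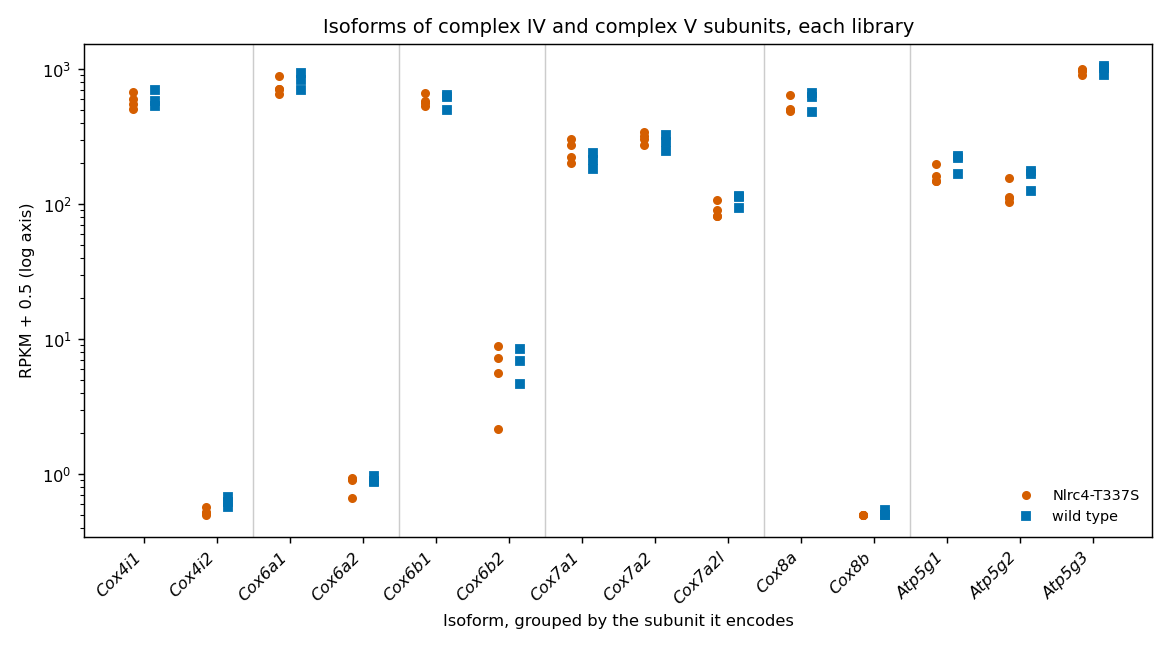
RPKM plus 0.5, on a log axis, of the isoform families of complexes IV and V in each library, Nlrc4-T337S as circles and wild type as squares, with vertical lines between families. Cox4i2, Cox6a2 and Cox8b lie at the floor, whereas Cox7a1 is nearly as high as Cox7a2.

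Complex V gave the highest transcript of the 86, Atp5b, the catalytic beta subunit, with 1021 ± 85.6 RPKM in Nlrc4-T337S and 1136 ± 92.0 RPKM in wild type. Atp5a1, the alpha subunit that forms the catalytic head with it, was at 541 ± 37.8 RPKM in Nlrc4-T337S and 579 ± 44.8 RPKM in wild type. The ratio of Atp5b to Atp5a1 was steady, at 1.84 to 1.92 in Nlrc4-T337S libraries and 1.95 to 1.98 in wild-type libraries. The ratios of the genotypes do not overlap, but their means are only 1.89 and 1.96, and this ratio was chosen for a look after values had been seen. Of the other ratios computed between members, only that of Cox7a2l to Cox7a2 in complex IV also had no overlap. It was 0.254 to 0.327 in Nlrc4-T337S libraries and 0.348 to 0.386 in wild-type libraries. The largest positive change of complex V was 0.09 (SE 0.11) for Atp5j, coupling factor 6, whose exons overlap Gabpa on the opposite strand.

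The c subunit, the membrane ring that turns as protons pass, comes from 3 genes whose mature proteins are known to be identical. Atp5g3 (chromosome 2, 73746504 to 73749383, mm9) had 897, 1002, 969 and 981 RPKM in Nlrc4-T337S replicates 1 to 4, against 1023, 896 and 1045 RPKM in wild-type replicates 1 to 3. Atp5g1 (chromosome 11, 95930166 to 95936984) had 160, 198, 147 and 147 RPKM in Nlrc4-T337S and 225, 167 and 217 RPKM in wild type. Atp5g2 (chromosome 15, 102493299 to 102501478), the lowest transcript of complex V, had 110, 154, 102 and 113 RPKM in Nlrc4-T337S and 174, 125 and 166 RPKM in wild type. Atp5g3 was thus the main c subunit transcript in every library, at 5.06 to 6.69 times Atp5g1 in Nlrc4-T337S and 4.55 to 5.36 times in wild type. The 2 minor genes gave the largest negative changes of the complex, -0.38 for Atp5g2 (SE 0.17, adjusted p = 0.238) and -0.32 for Atp5g1 (SE 0.15, adjusted p = 0.254), against -0.04 for Atp5g3 (SE 0.12). In both minor genes Nlrc4-T337S replicate 2 lies within the wild-type range and the groups overlap. RPKM divides by a gene length that the files do not give, and annotated Atp5g1 transcripts run from 596 to 4715 bases, so the ratios between these genes depend on the gene model used.

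The coding sequences show how far reads of the 3 genes can be told apart. The last 78 codons, which encode the same amino acids in all 3, are given below from the GENCODE M1 transcripts of the mm9 assembly, 5′ to 3′, with capitals at the bases that are not the same in all 3 genes.
Atp5g1: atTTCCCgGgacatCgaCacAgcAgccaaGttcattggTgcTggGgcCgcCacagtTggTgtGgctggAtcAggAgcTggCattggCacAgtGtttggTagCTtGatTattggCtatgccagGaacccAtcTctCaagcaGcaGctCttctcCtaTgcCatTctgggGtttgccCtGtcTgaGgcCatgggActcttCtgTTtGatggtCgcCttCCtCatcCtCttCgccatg
Atp5g2: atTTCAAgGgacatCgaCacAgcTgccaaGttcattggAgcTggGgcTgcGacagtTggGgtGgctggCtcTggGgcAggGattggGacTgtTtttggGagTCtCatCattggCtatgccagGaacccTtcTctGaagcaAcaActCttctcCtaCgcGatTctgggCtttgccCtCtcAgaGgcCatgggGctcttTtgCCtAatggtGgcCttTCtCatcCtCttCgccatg
Atp5g3: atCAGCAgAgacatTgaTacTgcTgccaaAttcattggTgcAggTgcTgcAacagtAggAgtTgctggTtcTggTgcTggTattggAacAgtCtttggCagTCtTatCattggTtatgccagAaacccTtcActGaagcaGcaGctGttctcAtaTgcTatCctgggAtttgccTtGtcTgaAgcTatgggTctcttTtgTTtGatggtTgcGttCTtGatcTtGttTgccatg
Of the 234 bases, 63 were not identical in all 3. Atp5g1 and Atp5g2 differed at 36 bases (84.6% identity) with a longest identical run of 20 bases, Atp5g1 and Atp5g3 at 50 (78.6%, longest run 11), and Atp5g2 and Atp5g3 at 53 (77.4%, longest run 8). Even where the protein is the same, identical runs between these genes are thus short.

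The 9 assembly and coupling factors were below the subunits in median level and in median change by genotype. All 9 were low, between Ndufaf5 with 1.48 RPKM and Atp5sl with 12.4 RPKM. Their median log2 change was -0.29, with 8 of 9 negative, against -0.15 over all genes, and none passed. All genes of 0.5 to 10 RPKM, the range of 8 of these 9, had a median of -0.18, and 83.7% of them were negative. Of all tested genes, 17.3% were lower in Nlrc4-T337S without overlap, so the lack of overlap given below for single factors is common. Ndufaf5, which hydroxylates the core subunit Ndufs7, had 1.03, 1.48, 0.999 and 1.30 RPKM in Nlrc4-T337S replicates 1 to 4, against 1.66, 1.97 and 1.89 RPKM in wild-type replicates 1 to 3. All 4 Nlrc4-T337S libraries lay below all 3 wild-type libraries, and the log2 change was -0.47 (SE 0.13, adjusted p = 0.123). Ndufaf4, an early assembly factor, had 2.59, 2.86, 3.20 and 2.49 RPKM in Nlrc4-T337S and 3.67, 3.94 and 3.33 RPKM in wild type, again without overlap (log2 change -0.34, SE 0.11, adjusted p = 0.155). Its partner Ndufaf3 had 7.03, 8.94, 8.34 and 9.20 RPKM in Nlrc4-T337S and 10.7, 9.24 and 10.5 RPKM in wild type, where the closest values, 9.20 and 9.24 RPKM, barely differ (log2 change -0.27, adjusted p = 0.219). Ndufaf6 was at 1.33 ± 0.320 RPKM in Nlrc4-T337S and 1.84 ± 0.153 RPKM in wild type. Ndufaf7, another complex I assembly factor, was at 2.52 ± 0.431 RPKM in Nlrc4-T337S and 3.27 ± 0.304 RPKM in wild type. The adjusted p-values of Ndufaf6 and Ndufaf7 were 0.191 and 0.200. The exception was Atp5s, coupling factor B of the ATP synthase, with 3.12 ± 0.0813 RPKM in Nlrc4-T337S and 2.87 ± 0.327 RPKM in wild type (log2 change 0.11). Without Nlrc4-T337S replicate 2, 1354 genes passed in place of 98, and Ndufaf5 (-0.54, adjusted p = 0.0279, range over all alternatives 0.0279 to 0.348) and Ndufaf6 (-0.48, adjusted p = 0.0287, range 0.0287 to 0.661) were among them.

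Of the related mitochondrial gene lists, set beside all genes, of which 78% were negative and 0.592% passed as lower, only the assembly factors held a call by genotype. Of 46 tested assembly factors of all complexes, which include Ndufaf1 to Ndufaf7, 40 were negative with a median of -0.21, 0 passed as higher and 1 as lower. That gene was Taco1, the translational activator of the mitochondrially encoded complex IV subunit Co1. It had 6.88, 8.15, 7.38 and 7.13 RPKM in Nlrc4-T337S replicates 1 to 4, against 11.4, 10.1 and 11.1 RPKM in wild-type replicates 1 to 3. Taco1 fell without overlap between the groups (log2 change -0.53, SE 0.10, adjusted p = 0.0493), but it was past the threshold in only 6 of 18 alternative settings, with adjusted p-values of 0.0111 to 0.262. Of 77 mitochondrial ribosomal protein genes, 75 were negative with a median of -0.26, and none passed. The smallest p-values there were those of Mrps11, with 4.80 ± 0.516 RPKM in Nlrc4-T337S and 7.08 ± 0.49998 RPKM in wild type (adjusted p = 0.0730), and of Mrps6, with 3.63 ± 0.704 RPKM in Nlrc4-T337S and 6.31 ± 1.41 RPKM in wild type (adjusted p = 0.103). Relative to the median of all genes the ribosomal list stayed negative in all 18 settings, between -0.20 and -0.07, and the 9 assembly and coupling factors did so between -0.23 and -0.10. The 46 assembly factors lay between -0.14 and 0.01 relative to it, and the 77 subunits between -0.04 and 0.12.

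The tricarboxylic acid cycle list had 15 of 17 genes negative and a median of -0.20 (between -0.15 and 0.04 relative to all genes over the 18 settings), with none past the threshold. Dlat, a subunit of pyruvate dehydrogenase, was at 8.24 ± 0.260 RPKM in Nlrc4-T337S and 11.01 ± 0.869 RPKM in wild type (adjusted p = 0.0876), and Idh2, the NADP-dependent isocitrate dehydrogenase, at 8.18 ± 2.27 RPKM in Nlrc4-T337S and 13.3 ± 1.02 RPKM in wild type (adjusted p = 0.106). A further list held electron carriers, ubiquinone enzymes and other genes that the name pattern leaves out, such as Cyc1. Of its 16 tested genes 11 were negative, with a median of -0.15 and no call. The smallest p-values were those of Pdss2, with 3.11 ± 0.266 RPKM in Nlrc4-T337S and 3.96 ± 0.518 RPKM in wild type, and Coq5, with 5.70 ± 0.911 RPKM in Nlrc4-T337S and 7.37 ± 0.777 RPKM in wild type. Of 19 import and inner membrane genes 18 were negative, with a median of -0.15 and no call, Slc25a4, an ADP/ATP carrier, having 4.60 ± 1.25 RPKM in Nlrc4-T337S and 8.47 ± 1.89 RPKM in wild type (adjusted p = 0.113) and Phb, a prohibitin, 18.7 ± 4.20 RPKM in Nlrc4-T337S and 28.0 ± 4.68 RPKM in wild type (adjusted p = 0.141). Of 17 biogenesis regulators 12 were negative, with a median of -0.18 and no call. Nrf1, a transcription factor of respiratory genes, was at 2.23 ± 0.170 RPKM in Nlrc4-T337S and 2.66 ± 0.164 RPKM in wild type, and Mterf4, a factor of mitochondrial ribosome assembly, at 2.89 ± 0.266 RPKM in Nlrc4-T337S and 3.50 ± 0.305 RPKM in wild type. All 8 tested crypt and proliferation markers were also negative, with a median of -0.82 and no call, and of 6 tested stroma and smooth muscle markers 4 fell. All 5 Paneth cell markers were negative with a median of -2.07, 2 of them fell, and the list summed to 63.0 to 229 RPKM in Nlrc4-T337S and 341 to 483 RPKM in wild type. Of 3 tested pancreatic acinar markers 2 fell, with sums over the list of 14.0 to 18.6 RPKM in Nlrc4-T337S and 27.0 to 37.5 RPKM in wild type. All 6 tested leukocyte markers were negative with a median of -0.59 and no call, and summed to 28.6 to 73.0 RPKM in Nlrc4-T337S and 49.2 to 89.4 RPKM in wild type. No marker of these lists was at 0 in all libraries, and their part in these changes was not tested.

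Within each genotype the subunits moved together from library to library. The median deviation of the 77 subunits from their own means on the log2 scale was -0.06, 0.14, -0.09 and -0.10 in Nlrc4-T337S replicates 1 to 4, against 0.13, -0.14 and 0.14 in wild-type replicates 1 to 3. In Nlrc4-T337S replicate 2, 74 of 77 lay above their own mean, and in wild-type replicate 1, 73 did. In wild-type replicate 2 only 3 of 77 did, although the median deviation of all genes there was 0.09. Both genotypes thus have libraries high and libraries low in subunits, and these do not follow S100g. Outside wild-type replicate 2, the median of all genes had the sign of the subunit median in every library. For all genes it was -0.14 (replicate 1), 0.05 (replicate 2), -0.17 (replicate 3) and -0.007 (replicate 4) within Nlrc4-T337S. Wild-type replicate 1 had 0.10 and wild-type replicate 3 had 0.07. How much of the shared movement of the subunits is a shift of all genes was not tested. The summed RPKM of complex I averaged 3827 ± 293 in Nlrc4-T337S and 4106 ± 437 in wild type, that of complex IV 5520 ± 574 in Nlrc4-T337S and 5636 ± 643 in wild type, and that of complex V 6321 ± 445 in Nlrc4-T337S and 6581 ± 647 in wild type. Each difference is smaller than the SD of either group. Over the 86 transcripts, the median SD across the 7 libraries was 0.16 on the log2 scale, and 0.09 once the library median of the 77 subunits was subtracted. The largest remaining SDs were those of Cox6b2 (0.67), Uqcrc1 (0.33), Ndufaf5 (0.27), Ndufaf4 (0.24), Cox7a1 (0.21) and Ndufa5 (0.21).

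**Figure D4:**
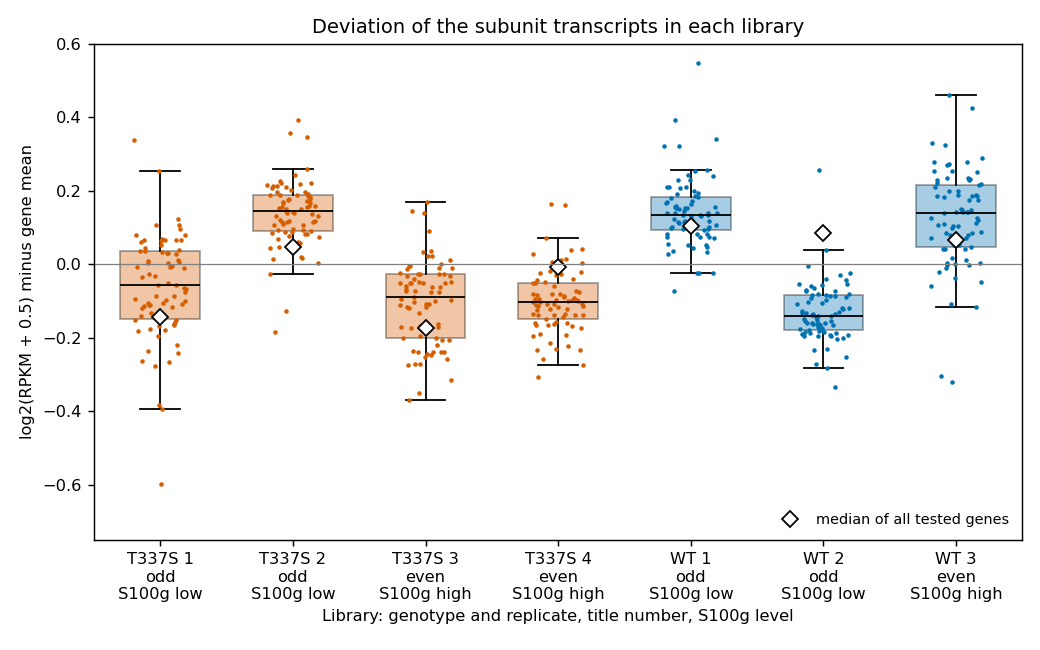
Deviation of each of the 77 subunit transcripts from its mean over the 7 libraries, on the log2(RPKM + 0.5) scale, by library; boxes hold the quartiles with the median as a line, whiskers reach 1.5 interquartile ranges, and diamonds are the median of all tested genes. The medians run between -0.14 in wild-type replicate 2 and 0.14 in Nlrc4-T337S replicate 2 and wild-type replicate 3.

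The 2 levels of S100g are measured values and carry no test of their own. The label-based form of the same split, odd against even title number with genotype as a second term, was tested, and none of the 86 passed, where 1.07% of all genes did, 0.291% as higher and 0.783% as lower in the odd-numbered libraries. At an unadjusted p under 0.05 there were 5 of the 86 (3 higher and 2 lower in the odd-numbered libraries) against 9.88% of all genes, 4.5% as lower. The groups did not overlap for 5 of the 86 (3 lower and 2 higher in the odd-numbered libraries), against 7.78% of all genes (2.91% lower and 4.87% higher). The median log2 change, odd minus even, was 0.04 for all genes and 0.06 for the subunits, and 25 of the 86 were negative, against 38.9% of all genes. By complex it was 0.04 for complex I, 0.07 for complex II, 0.05 for complex III, 0.06 for complex IV and 0.07 for complex V. The interaction of genotype with title number passed for none of the 86 (0.0637% of all genes), and none had an unadjusted p under 0.05 for it (2.58% of all genes). For each of the related mitochondrial lists above, none of the tested genes passed by title number either. Of the 10 enterocyte markers 1 passed as lower in the odd-numbered libraries, although 8 were positive with a median of 0.32. By genotype none of these markers passed, and 7 were negative with a median of -0.07.

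A few transcripts stood out by their values. Uqcrc1 had 105, 146, 151 and 169 RPKM in the odd-numbered libraries and 170, 178 and 219 RPKM in the even-numbered ones. These ranges touch without overlap, the odd libraries being the lower, and the log2 change was -0.48 (SE 0.13, adjusted p = 0.211). The difference had nearly the same size within Nlrc4-T337S (-0.49) and within wild type (-0.46). Ndufa5 (chromosome 6, 24468666 to 24478013, mm9) encodes an accessory subunit of the matrix arm of complex I. It had 99.9, 98.4, 114 and 99.8 RPKM in the odd-numbered libraries and 126, 125 and 123 RPKM in the even-numbered ones. The odd libraries again were lower, with a log2 change of -0.29 (SE 0.09, adjusted p = 0.318). Ndufc1, another accessory subunit, was at 132 ± 3.68 RPKM in odd-numbered and 145 ± 9.49 RPKM in even-numbered libraries, without overlap (log2 change -0.15).

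In complex IV, 2 transcripts went the other way. Ndufa4 (chromosome 6, 11850373 to 11857446) had 371, 460, 427 and 341 RPKM in the odd-numbered libraries and 314, 307 and 335 RPKM in the even-numbered ones (log2 change 0.32, SE 0.13, adjusted p = 0.475). Cox6b2 (chromosome 7, 4703396 to 4704696) had 6.78, 8.44, 7.90 and 6.37 RPKM in the odd-numbered libraries and 1.66, 5.05 and 4.10 RPKM in the even-numbered ones. Its odd libraries all lay above its even ones, and its log2 change of 1.02 (SE 0.30, adjusted p = 0.269) was the largest of the 86. Ndufs5, with 68.1 ± 7.56 RPKM in odd-numbered and 57.0 ± 5.38 RPKM in even-numbered libraries, overlapped (log2 change 0.27, adjusted p = 0.484). With array weights, which count some libraries less, 1384 genes passed in place of 118, and 4 of the 86 were among them. These were Uqcrc1 (adjusted p = 0.00394, range over all alternatives 0.00394 to 0.708), Cox6b2 (0.0106, range 0.0106 to 0.586), Ndufs5 (0.0106, range 0.0106 to 0.814) and Ndufa4 (0.0378, range 0.0378 to 0.820). Outside the subunits, Ogdh of the tricarboxylic acid cycle shared the direction of Uqcrc1, with 55.9, 69.6, 76.8 and 96.4 RPKM in the odd-numbered libraries and 108, 96.5 and 113 RPKM in the even-numbered ones (log2 change -0.58, adjusted p = 0.132).

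**Figure D5:**
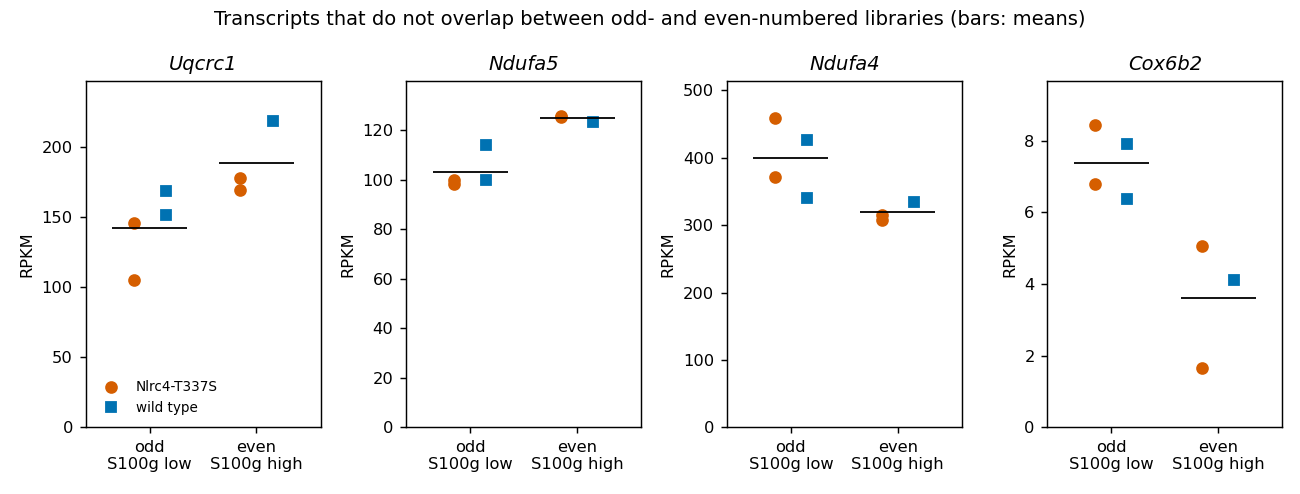
RPKM of 4 of the 5 transcripts whose values do not overlap between odd-numbered (S100g low) and even-numbered (S100g high) libraries, with Nlrc4-T337S as circles, wild type as squares and horizontal bars at the mean of each set. Uqcrc1 and Ndufa5 are lower, and Ndufa4 and Cox6b2 higher, in the odd-numbered libraries of both genotypes.

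The promoters of the subunit genes were searched for the motifs of factors known to act on respiratory genes. Any part of these motifs in the movement of the subunits from library to library was not tested. RefSeq promoter windows of GRCm38.p6, a later assembly than mm9, covered 250 bases before to 50 after the start and were found for 66 of the 77 subunit genes and 27025 genes in all. All genes were counted whether expressed in the scrapings or not. Both strands were read, and a match is a description of letters and not a site in use. A gene with several windows was counted where any of them matched. The NRF1 motif core CGCATGCG was found in 9 of the 66 genes (13.6%, against 2.07% of all genes). The ETS motif CCGGAAG, read by Gabpa, was found in 16 (24.2%, against 9.93%), and the YY1 motif AAGATGGCG in 7 (10.6%, against 1.64%), 5 of them in complex I. The estrogen-related receptor motif TCAAGGTCA was in 2, Sdhd and Atp5g3 (3.03%, against 0.466%), and CCAAT in 28 (42.4%, against 41.1%). The windows of the c subunit genes, which encode 1 mature protein at unlike levels, and of Cox6a1, the highest complex IV gene, are shown as the 120 bases before the start on the gene's strand, 5′ to 3′, with the motifs above in capitals.
Atp5g1 (chr11:96075632-96075751, minus strand): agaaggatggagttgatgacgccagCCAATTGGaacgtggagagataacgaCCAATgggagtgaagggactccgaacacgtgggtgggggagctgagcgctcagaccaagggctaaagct
Atp5g2 (chr15:102671048-102671167, minus strand): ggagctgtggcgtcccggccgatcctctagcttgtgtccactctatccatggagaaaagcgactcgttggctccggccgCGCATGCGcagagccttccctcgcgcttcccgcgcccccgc
Atp5g3 (chr2:73911327-73911446, minus strand): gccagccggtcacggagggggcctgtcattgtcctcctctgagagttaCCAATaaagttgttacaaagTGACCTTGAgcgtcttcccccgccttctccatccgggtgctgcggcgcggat
Cox6a1 (chr5:115348959-115349078, minus strand): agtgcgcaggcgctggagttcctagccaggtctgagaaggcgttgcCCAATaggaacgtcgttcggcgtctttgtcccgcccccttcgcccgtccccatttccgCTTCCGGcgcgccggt
The 3 c subunit promoters held different motifs: CCAAT on both strands in Atp5g1 (where a pair of matches overlap), the NRF1 motif in Atp5g2, and CCAAT with the estrogen-related receptor motif, here on the opposite strand, in Atp5g3. Cox6a1 held CCAAT and the ETS motif, the last on the opposite strand, and its NRF1 match lies outside the bases shown. Uqcrc1 also has an NRF1 match in its window.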

How the data were processed

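Members and gene lists were chosen with earlier results of these data known. Per the file headers, the authors mapped reads to mm9 with TopHat 2.1.0 and used Partek 6.16.0606 to turn them into RPKM (the submitters' processing notes have TopHat2 2.1). How multi-mapped reads were treated and which gene models were used is not given in the sources used here. The deposited sample sheet gives a count of quality-passing reads and a mapped fraction, headed as a percent but written as a fraction, for each library. Libraries were made with the Illumina TruSeq RNA kit from total RNA, per the labels, and do not mark strand. Exons of 13 of the 86 members overlap another protein-coding gene, by an mm9 annotation that matched 82 of them.

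RPKM is not a count, so log2(RPKM + 0.5) was tested over the 10987 genes with a mean of at least 0.5 RPKM, by limma 3.58.1 with a mean-variance trend in R 4.3.3, two-sided, with Benjamini-Hochberg adjustment at 0.05. Genotype was fitted without a covariate and title number with genotype as a second term. Intervals are 95% intervals. On this scale the fold change of a low gene is understated. Groups came from each library's genotype label, and replicate numbers follow accession order. On simulated data with 10987 genes, 200 of them changed, in 10 simulations, the genotype fit recovered 0% at 1.2-fold, 37.7% at 1.5-fold and 83% at 2-fold. The share of false calls, averaged over simulations and counted as 0 where nothing was called, was 10%, 4.49% and 5.13%. At 1.2-fold any call made was false, since no changed gene was recovered. Noise was drawn for each gene separately, whereas the subunits moved together in these libraries. Its size came from a fit with terms for both genotype and title number, whereas the genotype fit has no term for title number. The recovery given for the genotype fit may therefore be too high. The title number fit recovered 0%, 16.6% and 79.2%.

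Members were named where they passed, where they were the highest, the lowest or the most changed by genotype of a complex, or where they belonged to the isoform families. Up to 4 genes of each pathway list were named where any passed, otherwise the 2 with the smallest p. Members outside this rule, such as Ndufa5, Ndufc1, Uqcrc2, Atp5a1 and Ndufaf3 to Ndufaf7, were picked with their values in view. The alternatives tried were other pseudocounts, filters, scalings, weights, a threshold of 0.10, robust variance, the second factor in or out and each library left out. Plots used matplotlib 3.10.9 under Python 3.11.15.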

Additional observations from a re-analysis of the deposited data

Results flagged for a closer look

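In groups of 4 libraries, a library was picked out where its gap to the nearest other, divided by the range of the group, exceeded Dixon's 95% critical value for 4 values. This happens by chance in about 1 of 20 groups, and only the Nlrc4-T337S group is large enough to be looked at. Of the 86 members, 4 were picked out, which is close to the share named for chance. The share over all genes is not given here. Nlrc4-T337S replicate 2 was above the other 3 for Cox8a (646 RPKM, ratio 0.92), for Ndufv1, which binds the flavin of complex I (119 RPKM, ratio 0.847), and for Uqcr10, a small subunit of complex III (223 RPKM, ratio 0.941). Nlrc4-T337S replicate 3 was below the others for Ndufa1, an accessory subunit of complex I (168 RPKM, ratio 0.836). The summed RPKM of complex I (4261, ratio 0.832) and of complex III (2024, ratio 0.837) were also highest in Nlrc4-T337S replicate 2, the library with the fewest reads. These sums are not independent of the members, and 74 of 77 subunits lay above their own mean in that library. The cause was not tested.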

How the results depend on the processing

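The 86 members gave 0 calls by genotype in every alternative run except without Nlrc4-T337S replicate 2 (range over left-out libraries 0 to 2), and 0 by title number except with array weights (4). The number of all genes called by genotype, 98, was 32 with no filter, 57 at a mean RPKM of at least 2, 348 with array weights, 148 with a term for title number, 312 at a threshold of 0.10 and 13 to 1354 with a library left out (31, 1354, 43 and 27 without Nlrc4-T337S replicates 1 to 4, and 14, 13 and 85 without wild-type replicates 1 to 3). By title number it was 118, and 23 with no filter, 1384 with array weights, 40 without a genotype term and 40 to 102 with a library left out (52 without Nlrc4-T337S replicate 3, and 48, 76 and 40 without wild-type replicates 1 to 3). After median-of-ratios scaling the median change by genotype was 0.10 for complex II, 0.054 for complex III and -0.15 for the assembly and coupling factors, which had -0.11 after quantile normalization and -0.36 to -0.22 with a library left out. Their median by title number was 0.070 without a genotype term and -0.11 to 0.092 with a library left out.

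Named changes turned sign 10 times, in 6 genes and all by genotype: Atp5g3 after median-of-ratios scaling (0.11), rescaling to the same sum (0.019) and without wild-type replicate 3 (0.0058); Sdhc with array weights (-0.0042) and without Nlrc4-T337S replicate 2 (-0.036) or wild-type replicate 2 (-0.052); Cox6b2 without Nlrc4-T337S replicate 3 (0.15); Uqcrfs1 (-0.0083) and Cox7a2 (-0.0019) without wild-type replicate 2; and Ndufs5 without wild-type replicate 3 (-0.040). With each library left out in turn these ranged over -0.11 to 0.0058 for Atp5g3, -0.052 to 0.051 for Sdhc, -0.53 to 0.15 for Cox6b2, -0.0083 to 0.11 for Uqcrfs1, -0.0019 to 0.21 for Cox7a2 and -0.040 to 0.24 for Ndufs5. The alternatives for all genes called by title number and the interaction with genotype were chosen after seeing the data. No paired analysis was possible because the labels give no replicate numbers shared by the genotypes.

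With 4 and 3 libraries, changes of 1.2-fold were not recovered in simulated data. RPKM rests on gene lengths that the files do not give, and a member whose exons overlap another gene may hold reads of both.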
